A study of Mus musculus with 2 samples.

Results

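Insulin and somatostatin double-positive barcodes are droplets of a single-cell RNA sequencing experiment on mouse islets in which the transcripts of both hormones were abundant. They were chosen by measured values. A barcode was kept with more than 2500 detected genes and under 10% of its UMIs (molecular tags that mark single captured transcripts) in mitochondrial genes, and it was double-positive with 300 or more Ins1 and Ins2 UMIs and 40 or more Sst UMIs per 10000 of all its UMIs, at any level of Gcg and Ppy. This rule found 680 of 8926 kept barcodes, of 12900 in all. The control library gave 313 of 4747 kept barcodes and the TBL/RβKO library 367 of 4179. They are called barcodes here, since whether 1 or more cells stood behind a barcode was not measured. The same 2 thresholds define the kinds they were compared with, the insulin barcodes (2488 control and 1066 TBL/RβKO), which were under 40 in Sst, and the somatostatin barcodes (346 and 530), which were under 300 in insulin. They are called single-hormone for insulin and Sst only, since Gcg and Ppy were left free in them as well. Both Gcg and Ppy were under 40 per 10000 in 90.2% of control and 36.9% of TBL/RβKO insulin barcodes. The same held for 15.0% and 16.2% of somatostatin barcodes.

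Each group was 1 library from 150 islets of 4 pooled C57BL/6N mice aged 5 weeks. Mice labelled TBL/RBKO carried Cre recombinase inserted into the Ins1 gene and floxed alleles of Tbl1x and Tbl1xr1, which deletes the 2 genes in β-cells, where the Ins1 promoter drives Cre. Mice labelled wildtype were littermates with no Cre. Islets were cultured overnight and separated with TrypLE before loading. Genotype and library cannot be told apart in this design, no test was possible, and every interval below is a 95% interval that covers counting error only.

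In the islet, β-cells make insulin, which lowers blood glucose, and δ-cells make somatostatin, a peptide that restrains the secretion of neighbouring β- and α-cells through receptors coupled to inhibitory G proteins. Mice have 2 insulin genes, Ins1 and Ins2. Mature β-cells are marked by the transcription factors Mafa and Nkx6-1, the glucose transporter Slc2a2 and the peptide Ucn3, which stimulates δ-cells, and δ-cells by the transcription factor Hhex, which maintains their identity, and by the retinol carrier Rbp4. Cells with more than 1 islet hormone occur in the embryonic pancreas and have been described when β-cell identity is lost. Droplet libraries also hold doublets, in which 2 cells share a barcode, and RNA released by broken cells.

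Each hormone was far above its level in the barcodes that lacked it, which the rule had fixed in part. Control double-positive barcodes held a median of 3486 insulin UMIs per 10000 (10th to 90th percentile 1491 to 4964), against 5235 in insulin barcodes and 83.8 in somatostatin barcodes. TBL/RβKO double-positive barcodes held 1454 (480 to 3201), against 2629 and 17.3. The median of Sst was 180 per 10000 in the control and 144 in TBL/RβKO, against 643 and 691 in somatostatin barcodes and 0.456 and 0.596 in insulin barcodes. As counted molecules, control double-positive barcodes had medians of 25213 insulin UMIs and 1369 Sst UMIs, close to the 27568 insulin UMIs of insulin barcodes and the 1871 Sst UMIs of somatostatin barcodes. In TBL/RβKO the medians were 11024 insulin UMIs, against 14585 in insulin barcodes, and 1212 Sst UMIs, against 1769 in somatostatin barcodes. Sst made up a median of 5.21% of insulin and Sst UMIs together in the control and 9.44% in TBL/RβKO. Ins1 (chromosome 19, 52252735-52253914, GRCm39) was read at a median of 0.374 UMIs per Ins2 UMI in control double-positive barcodes and 0.102 in TBL/RβKO ones, beside 0.383 and 0.134 in insulin barcodes.

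**Figure D1:**
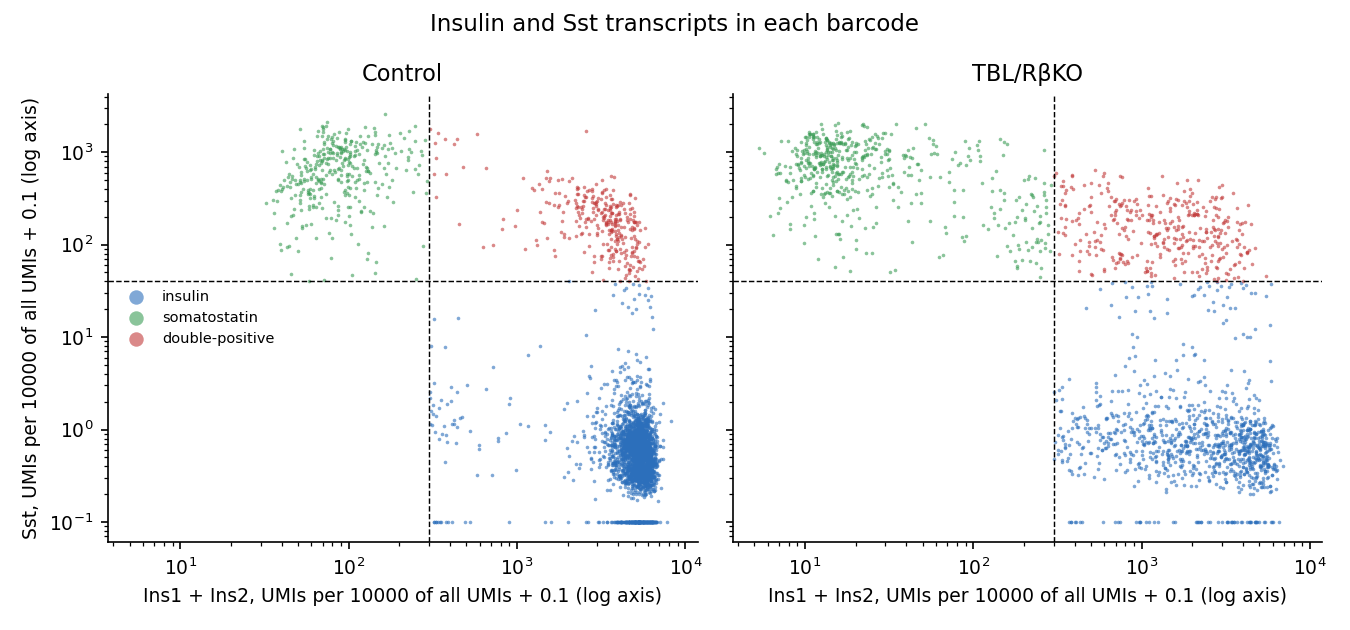
Each point is 1 barcode. The horizontal axis gives Ins1 and Ins2 UMIs and the vertical axis Sst UMIs, both per 10000 of all UMIs on log axes, for insulin (blue), somatostatin (green) and double-positive (red) barcodes, with the thresholds dashed. In the control, 293 of 313 double-positive barcodes lay at 1000 insulin UMIs per 10000 or more, and in TBL/RβKO 239 of 367 did.

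Barcodes lay apart from the insulin threshold in the control and across it in TBL/RβKO. Of the control barcodes with Sst at 40 or more, 22 had insulin between 200 and 300, 10 between 300 and 450, 3 between 450 and 600 and 7 between 600 and 1000, whereas 166 lay between 2000 and 4000 and 93 above that. The corresponding numbers in TBL/RβKO were 41, 33, 32, 63, 114 and 12, with 113 more between 1000 and 2000. Lower down, 415 lay under 50, 34 between 50 and 100 and 40 between 100 and 200. Numbers just below and above the threshold were thus similar there, while most somatostatin barcodes lay under 50. Next to the threshold, the lowest values inside were 302 and 303 insulin UMIs per 10000 and the highest outside 293 and 288, in the control and in TBL/RβKO. At the Sst threshold, the lowest inside were 40.2 and 40.1 and the highest outside 39.9 and 39.7. Most insulin-positive barcodes lay far below it, with 2453 control and 999 TBL/RβKO barcodes under 5 Sst UMIs per 10000 and 17 and 38 between 20 and 40.

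Double-positive barcodes made up 6.59% [5.90 to 7.34] of kept barcodes in the control and 8.78% [7.94 to 9.68] in TBL/RβKO. Of barcodes with Sst at 40 or more they were 47.5% [43.6 to 51.4] and 40.9% [37.7 to 44.2], and of barcodes with insulin at 300 or more 11.2% [10.0 to 12.4] and 25.6% [23.4 to 28.0]. Under 6000 genes the order of the libraries turned, at 0.952% [0.633 to 1.37] of kept control and 0.712% [0.423 to 1.12] of kept TBL/RβKO barcodes, but these intervals overlap. The denominators differed as well, since barcodes with Sst at 40 or more were 13.9% of kept control and 21.5% of kept TBL/RβKO barcodes and insulin-positive barcodes 59.0% and 34.3%. For comparison, 11.6% of control and 9.86% of TBL/RβKO barcodes with 300 or more Gcg UMIs per 10000, the glucagon transcript of α-cells, were also insulin-positive. Sst at 40 or more was found in 7.40% and 5.33% of those Gcg barcodes that lacked insulin. Barcodes were called non-endocrine where macrophage, stromal, endothelial or B cell markers, summed by class, reached 20 UMIs per 10000 (167 and 276). This cut-off set no limit on hormones. Of these barcodes, 2.99% and 2.54% reached the Sst threshold and 6.59% and 6.16% the insulin threshold. In each library 4 met both and so were double-positive too. The hormone thresholds were also met by 97 of 2320 control barcodes (4.18%) and 27 of 1654 TBL/RβKO barcodes (1.63%) outside the filter on genes and mitochondrial UMIs. The libraries shared 14 barcode sequences, of which 2 were double-positive in either library.

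Double-positive barcodes were the deepest of the 3 kinds. Without the 5 hormone genes (Ins1, Ins2, Sst, Gcg and Ppy) the median barcode held 48347 UMIs in the control, against 24416 in insulin and 21463 in somatostatin barcodes. In TBL/RβKO it held 64427, against 40617 and 21046. The median number of detected genes was 7831 and 8182 in double-positive barcodes, between 5917 and 6696 in insulin and between 5482 and 5597 in somatostatin barcodes. A count of 6000 genes or more, the upper limit that the study set, was reached by 91.1% [87.3 to 94.0] of control and 95.1% [92.4 to 97.1] of TBL/RβKO double-positive barcodes, by 46.2% and 71.0% of insulin, by 41.6% and 40.0% of somatostatin and by 14.1% and 12.7% of α-cell barcodes (Gcg at 300 or more, under both the insulin and the Sst threshold, at any level of Ppy). Barcodes with both Gcg and insulin at 300 or more, at any level of Sst, reached it in 75.3% and 86.9%. Some of these were double-positive barcodes as well, so they are not a separate kind. A high number of genes was thus also seen with that pair of hormones, in overlapping barcodes. With every barcode thinned to 5000 UMIs, hormones included, double-positive barcodes no longer had the most genes. Insulin UMIs filled part of the 5000, most in insulin and least in somatostatin barcodes, so these numbers are not free of the hormones. The median was then 1766 in the control and 1979 in TBL/RβKO, between the 1438 and 1744 of insulin barcodes and the 2190 and 2216 of somatostatin barcodes. Their share of mitochondrial UMIs had a median of 2.24% and 3.74%, beside 2.60% and 3.89% in insulin and 2.57% and 2.79% in somatostatin barcodes.

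**Figure D2:**
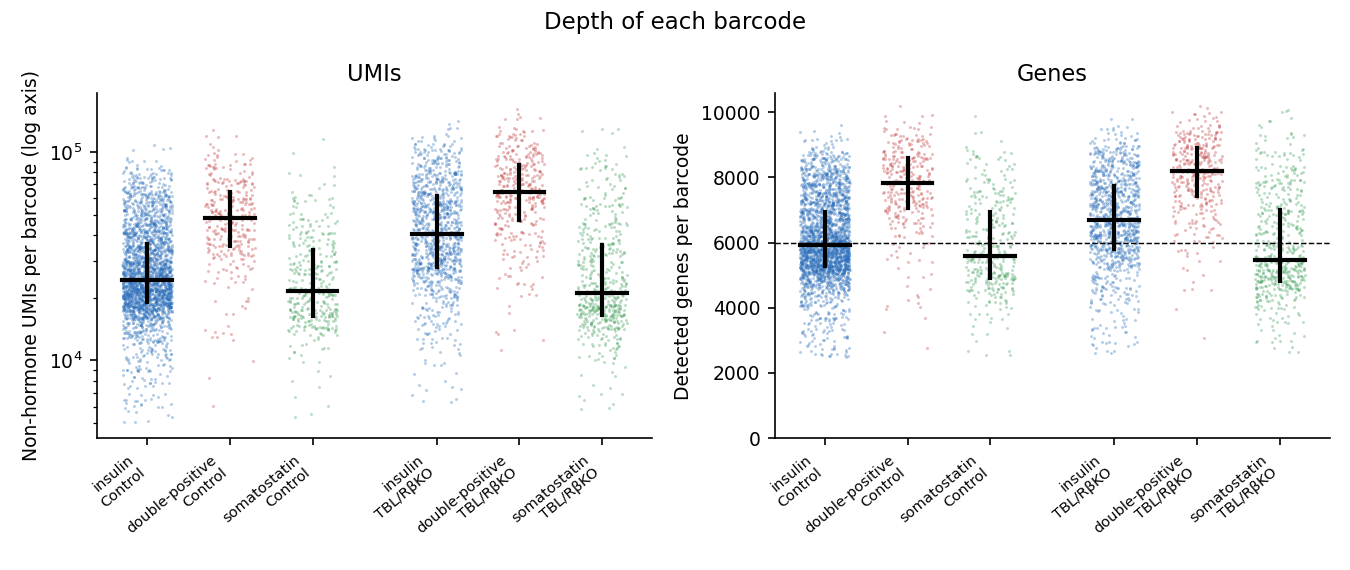
Each point is 1 barcode, coloured by kind, with its UMIs without 5 hormone genes on a log axis (left) and its detected genes (right, with 6000 genes dashed). Black lines give the median and the quartiles, and the median of double-positive barcodes was above both single-hormone kinds in each library.

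A doublet score, which sets each barcode against pairs of barcodes added together, marked 24.6% [19.9 to 29.8] of control and 10.1% [7.20 to 13.6] of TBL/RβKO double-positive barcodes. It marked 7.15% and 8.16% of insulin, 4.05% and 9.81% of somatostatin and 1.28% and 1.59% of α-cell barcodes. The highest shares, 58.4% and 36.9%, were those of barcodes with both Gcg and insulin at 300 or more, which overlap with double-positive barcodes. Marked control double-positive barcodes (77) held a median of 56121 UMIs without hormones and the 236 unmarked ones 45383, both above the single-hormone kinds. In TBL/RβKO the medians were 69157 in 37 marked and 64020 in 330 unmarked barcodes. The automatic threshold of the score marked only 1 barcode of that library and was replaced by a fixed rate, so the shares describe the ranking and do not count doublets.

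The label was then checked against markers that the rule had not used. Hhex (chromosome 19, 37423258-37429179) had at least 1 UMI in 89.1% of control and 84.7% of TBL/RβKO double-positive barcodes, close to the 90.8% and 90.6% of somatostatin barcodes and far from the 2.17% and 5.91% of insulin barcodes. Its mean was 3.99 and 3.43 UMIs per barcode, against 4.56 and 4.12 in somatostatin barcodes. Rbp4 (chromosome 19, 38105066-38113754) averaged 145 and 107 UMIs, against 124 and 99.3 in somatostatin and 3.12 and 10.4 in insulin barcodes. The other δ-cell genes named here, the phosphatase Ptprz1 (5.92 and 6.85), the imprinted gene Mest (6.76 and 7.72) and the ghrelin receptor Ghsr (0.581 and 0.632), also had means close to those of somatostatin barcodes (6.32 and 7.77, 7.01 and 8.89, 0.572 and 0.717). Each of these 5 δ-cell genes was thus read at nearly the full number of molecules of a somatostatin barcode. They are part of a list of 10 δ-cell genes, not all of which separated the kinds. As levels, 8 of 10 tested in the control and 7 of 9 in TBL/RβKO were 2-fold or more higher than in insulin barcodes. Casr and Frzb were not higher by 2-fold in either library.

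The β-cell genes of control double-positive barcodes stood near the number of molecules of an insulin barcode. Mafa (chromosome 15, 75617339-75620077) averaged 24.7 UMIs per barcode, against 30.8 in insulin and 0.488 in somatostatin barcodes, and was found in 92.7% of double-positive barcodes. Slc2a2 averaged 16.7 UMIs, against 0.399 in somatostatin barcodes, and Nkx6-1 12.4, against 12.3 and 1.21. In TBL/RβKO, Nkx6-1 averaged 8.85 UMIs, against 8.40 in insulin barcodes, and Ucn3 9.76, against 9.67. Mafa and Slc2a2 were lower there, at 2.69 and 2.23 UMIs per double-positive barcode, against 7.18 and 4.55 in insulin barcodes, and were found in 34.1% and 42.2% of double-positive barcodes. Iapp, the amyloid peptide stored with insulin, averaged 3810 and 3980 UMIs in double-positive, 2820 and 3340 in insulin and 825 and 926 in somatostatin barcodes.

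**Figure D3:**
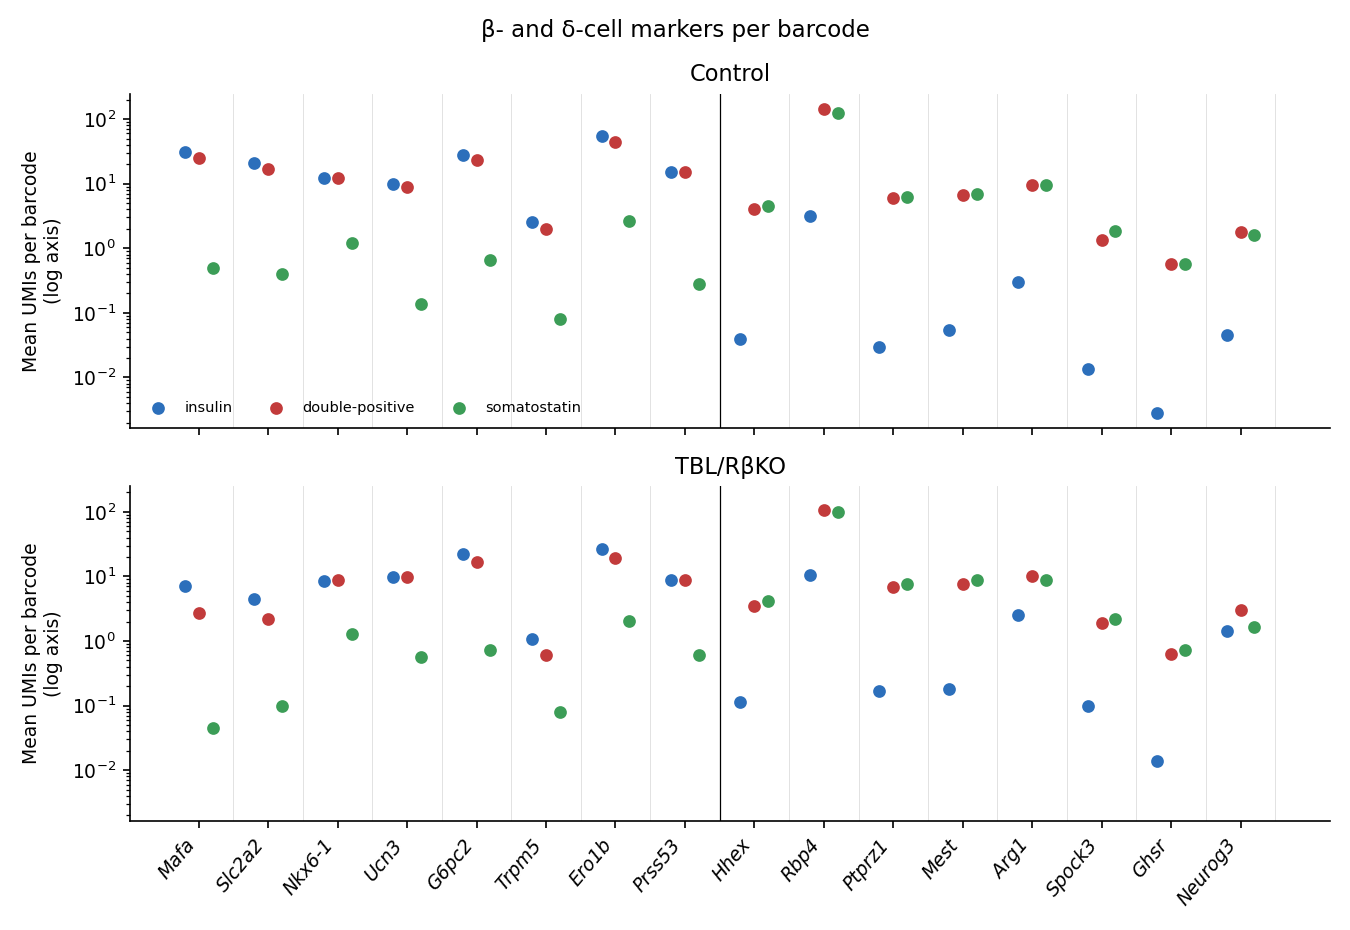
Mean UMIs per barcode (log axis) of 8 β-cell genes (left of the line) and of 7 δ-cell genes and Neurog3 (right) in insulin (blue), double-positive (red) and somatostatin (green) barcodes, in the control (top) and TBL/RβKO (bottom) library. Red points sit near the blue ones on the left and near the green ones on the right, with Mafa and Slc2a2 of TBL/RβKO at 2.69 and 2.23 against 7.18 and 4.55 in insulin barcodes. Other genes of both lists are not drawn, among them the δ-cell genes Casr, Frzb and Ffar4.

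At least 1 UMI of a β-cell marker (Mafa, Slc2a2 or Nkx6-1) together with Hhex was found in 88.8% of control and 83.1% of TBL/RβKO double-positive barcodes. The share was 2.17% and 5.72% in insulin, 62.1% and 30.8% in somatostatin, 1.02% and 0.361% in α-cell and 25.1% and 6.16% in non-endocrine barcodes. Median depths were 78460 and 85455 UMIs in double-positive and 19799 and 19076 in α-cell barcodes. A UMI of a β-cell marker alone was found in 66.4% and 31.2% of α-cell barcodes, and Hhex in 1.11% and 1.08%. At 5000 UMIs per barcode, hormones included, the shares were 17.3% [13.2 to 21.9] and 6.81% [4.46 to 9.89] in double-positive barcodes. In somatostatin barcodes they were 10.4% [7.39 to 14.1] and 4.34% [2.77 to 6.44], with intervals of the 2 kinds overlapping in each library. They were 0.281% and 0.844% in insulin barcodes and 0 of 1176 and 0 of 1385 in α-cell barcodes, which allows up to 0.255% and 0.217% when the limit is set at 3 barcodes. The 2 parts of this joint share went opposite ways at 5000 UMIs. A β-cell marker UMI was found in 90.1% and 45.2% of double-positive and in 23.1% and 12.5% of somatostatin barcodes. Hhex was found in 19.5% and 17.4% of double-positive and in 53.2% and 47.7% of somatostatin barcodes. Somatostatin barcodes, chosen for low insulin, thus held single β-cell marker UMIs as well, beside a mean of 67.5 Ins1 UMIs in the control and 19.1 in TBL/RβKO.

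Most genes were read in a double-positive barcode at slightly less than the sum of the means of an insulin and a somatostatin barcode. Over the 9642 genes with a summed mean of 0.5 UMIs or more in the control, the mean of double-positive barcodes was a median of 0.890 times this sum (5th to 95th percentile 0.760 to 1.03), and over 9999 genes in TBL/RβKO 0.863 times (0.737 to 0.989). It was within 2-fold of the sum for 99.8% and 99.6% of genes, within 2-fold of an insulin barcode alone for 80.7% and 93.4% and within 2-fold of a somatostatin barcode alone for 62.7% and 42.4%. The median ratio was 1.72 and 1.48 to an insulin barcode and 1.87 and 2.08 to a somatostatin barcode. These means were not scaled for depth, and double-positive barcodes were deeper. The shares within 2-fold thus depend on depth and do not rank the sum against either kind. Genes that were 10-fold or more higher in insulin than in somatostatin barcodes (61 in the control and 40 in TBL/RβKO) stood in double-positive barcodes at a median of 0.886 and 0.755 times their mean in insulin barcodes. Those 10-fold or more higher in somatostatin barcodes (118 and 65) stood at 0.922 and 0.886 times their mean there. Among the 28 and 18 double-positive barcodes under 6000 genes the median ratio to the sum was 0.451 and 0.473. The hormones stood at 0.913 and 0.624 (Ins1), 0.927 and 0.765 (Ins2) and 0.840 and 0.735 (Sst) of the sum. All the kinds compared here were chosen by Ins1, Ins2 and Sst. The thresholds thus fixed these hormone ratios in part, and they are given as description only.

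**Figure D4:**
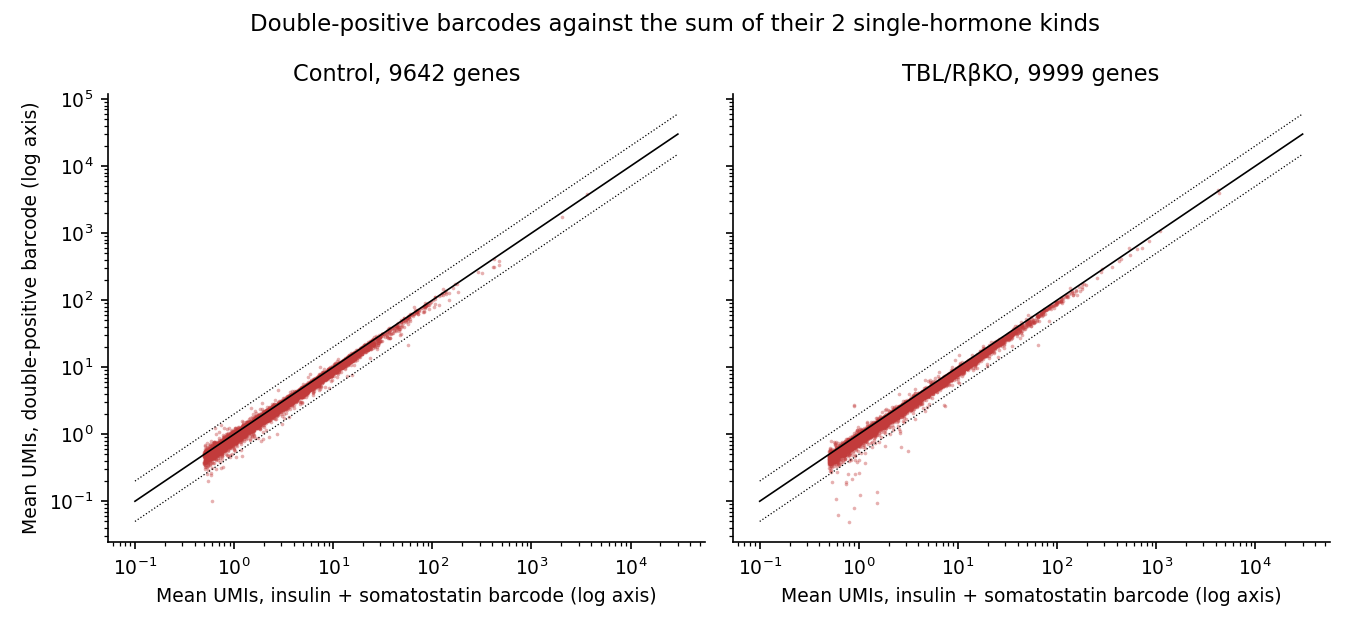
Each point is 1 gene, with the sum of its mean UMIs in insulin and in somatostatin barcodes on the horizontal and its mean UMIs in double-positive barcodes on the vertical axis, both log axes. The solid line marks equality and the dotted lines 2-fold, between which 99.8% of control (left) and 99.6% of TBL/RβKO genes (right) lay.

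Few genes departed from the sum by 2-fold or more. In the control, 18 genes were below it (0.187% of those compared) and 0 above (0.0%), and in TBL/RβKO 36 were below (0.36%) and 2 above (0.02%). With Gcg and Ppy under 100 UMIs per 10000 in every kind, 30 control and 85 TBL/RβKO genes departed from the sum. These and the following genes were looked up after their values were seen. Cmss1, Nrcam and Il31ra were below in both libraries, at 0.370 and 0.335, 0.416 and 0.479, and 0.419 and 0.475 times the sum. Cmss1 had 99.7% of double-positive barcodes with a UMI, at means of 21.1 and 21.7, and was not carried by few barcodes. Mafa and Slc2a2 were below in TBL/RβKO alone, at 0.373 and 0.481, beside 0.789 and 0.778 in the control. Others of TBL/RβKO were stromal genes, among them the collagens Col1a1 (0.260) and Col3a1 (0.184) and the matrix protein Sparc (0.181), which insulin and somatostatin barcodes held at under 3 UMIs each. The 2 above were Cd74 (2.88), the chaperone of class II antigen presentation, and the lipid carrier Apoe (3.01), with 53.0% and 41.2% of their UMIs in 1 barcode each.

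The thresholds on Gcg and Ppy, which the rule left free, were often passed too. Ppy, the pancreatic polypeptide transcript, was at 40 or more per 10000 in 69.0% [63.6 to 74.1] of control and 91.3% [87.9 to 94.0] of TBL/RβKO double-positive barcodes. It was so in 79.5% and 80.6% of somatostatin barcodes and in 3.54% and 57.7% of insulin barcodes, so that insulin barcodes of the 2 libraries differed in it more than double-positive ones. Gcg at 40 or more was found in 26.8% [22.0 to 32.1] and 36.8% [31.8 to 41.9] of double-positive barcodes, against 32.1% and 20.8% of somatostatin and 7.68% and 20.3% of insulin barcodes. All 4 hormones were at or above their thresholds in 20.4% and 34.9% of double-positive barcodes, and neither Gcg nor Ppy in 24.6% and 6.81%. In non-endocrine barcodes Ppy reached 40 in 3.59% and 6.16% and Gcg in 7.19% and 6.52%. Median levels in double-positive barcodes were 75.6 and 216 per 10000 for Ppy and 5.58 and 6.36 for Gcg. Pyy, a peptide of the same family as Ppy, averaged 1750 and 4360 UMIs, against 101 and 2130 in insulin and 1940 and 2060 in somatostatin barcodes.

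For comparisons of levels, UMIs were summed over the barcodes of a kind and expressed per 1e6 UMIs without the 5 hormones, and a gene was called at a 2-fold difference, with 20 or more UMIs over both sums and 10 or more per 1e6 in the higher. Against insulin barcodes, control double-positive barcodes had 329 of 9468 genes higher (3.47%) and 54 lower (0.57%), and TBL/RβKO ones 194 of 9113 higher (2.13%) and 42 lower (0.461%). The δ-cell list was 8 of 10 tested genes higher and 0 lower in the control (median log2 ratio 5.28, against -0.01 over all genes tested) and 7 of 9 higher and 0 lower in TBL/RβKO (2.82, against 0.02). The ratio of Hhex was 5.87 and 4.39, of Ptprz1 6.86 and 4.79 and of Rbp4 4.74 and 2.82, each lower in TBL/RβKO, where the insulin barcodes held more of these genes. The β-cell list had 5 of 15 genes lower and 0 higher in both libraries (medians -0.82 and -0.58). The calcium-sensing receptor Casr (0.33 and 0.02) and the Wnt antagonist Frzb (-0.15 and 0.09), also on the δ-cell list, were about as high in insulin barcodes.

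Against somatostatin barcodes, control double-positive barcodes had 249 of 9688 genes higher (2.57%) and 243 lower (2.51%), and TBL/RβKO ones 180 of 9512 higher (1.89%) and 338 lower (3.55%). With Gcg and Ppy under 100 in both kinds, 1037 and 1092 genes differed from somatostatin barcodes in either direction. The β-cell list was 13 of 15 higher in the control (median log2 ratio 2.88) and 9 of 14 in TBL/RβKO (1.60), with 0 lower in both. Ucn3 stood at 5.11 and 2.91 and G6pc2, a glucose-6-phosphatase of β-cells, at 4.24 and 3.35. The phosphatase inhibitor Ppp1r1a was 2.35 in the control and 0.08 in TBL/RβKO, and Slc30a8, the zinc transporter of insulin granules, 0.70 and -0.07. The δ-cell list had 3 of 10 genes lower in the control (median -0.93) and 8 of 10 in TBL/RβKO (-1.26), with 0 higher. A level is a share of a barcode's UMIs, and double-positive barcodes held more UMIs, so an equal number of molecules gives a lower level in them.

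Few genes lay outside the range of both single-hormone kinds by 2-fold or more, and most of these were carried by few barcodes. In the control 4 genes of 9808 lay above both (0.0408%), Emcn, Mgp, Sparc and H2-Eb1, and 3 below (0.0306%), Il31ra, Nrcam and Cmss1. In TBL/RβKO 6 genes of 9598 lay above (0.0625%), Apoe, Lgals3, H2-Ab1, H2-Aa, H2-Eb1 and Cd74, and 6 below (0.0625%), Vim, Col1a2, Lrrtm4, Cryab, Sparc and Col1a1. Only 1 gene, the class II antigen H2-Eb1, lay above in both libraries, with 94.0% of its control and 54.9% of its TBL/RβKO UMIs in 1 barcode, and 0 lay below in both. Emcn and Mgp, genes of endothelial and stromal cells, had UMIs in 8 and 30 of 313 control double-positive barcodes, with 54.6% and 38.6% in 1 barcode. Cmss1 was present in 312 of 313, with log2 ratios of -1.03 to insulin and -1.53 to somatostatin barcodes in the control and -0.90 and -1.97 in TBL/RβKO. Among the 10 genes highest above both kinds in both libraries, H2-Eb1, Cd74 and H2-Ab1 were followed by the tubulin regulator Stmn1 (at least 0.41 above in all 4 ratios) and the glutathione transferase Gstm1 (at least 0.23). The smallest of the 4 log2 ratios was between 0.17 and 0.21 for Kctd13, Nherf1, Ctf1, Lin37 and Orai3.

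The libraries were then compared within double-positive barcodes. The check of the labels was Cre. No Cre UMI was found in 313 control double-positive barcodes, which allows a share of up to 0.958% when the limit is set at 3 barcodes, and 68 of 367 TBL/RβKO ones had one (18.5% [14.7 to 22.9]). The share was 19.9% in insulin, 1.13% in somatostatin, 0.794% in α-cell and 2.17% in non-endocrine TBL/RβKO barcodes, and Cre averaged 1.71 UMIs in double-positive, 2.34 in insulin and 0.0491 in somatostatin barcodes. UMIs of Tbl1x and Tbl1xr1 were higher in TBL/RβKO double-positive barcodes, by log2 1.31 [1.26 to 1.37] and 1.86 [1.74 to 1.97]. The 3′ chemistry counts the ends of transcripts, and since the sources used here do not place the deleted exons at these ends, these values check nothing about the deletion. Of the other members of the corepressor complex, Ncor1 had a log2 difference of 0.08, Hdac3 of -0.54 and Gps2 of -0.10.

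Of 9500 genes tested, 222 were higher in TBL/RβKO than in control double-positive barcodes (2.34%) and 207 lower (2.18%), with a median log2 ratio of -0.17 over all genes. Scaled to all UMIs, hormones included, the numbers were 414 and 70 and the median 0.20, so the direction of a small difference depends on the scaling. Between insulin barcodes 362 of 9300 genes were higher (3.89%) and 384 lower (4.13%), and between somatostatin barcodes 130 of 9599 higher (1.35%) and 74 lower (0.771%). Double-positive barcodes thus stood between the insulin and the somatostatin barcodes in both numbers. Ins1, whose locus holds the Cre insertion in TBL/RβKO, fell by 2.27 on the log2 scale per UMI of all genes (Ins2 by 0.69, Sst by 0.24 and Gcg by 0.22), and Ppy was 0.76 higher. In insulin barcodes the differences were -1.83 for Ins1, -0.52 for Ins2 and 2.74 for Ppy.

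Of the 15 β-cell genes tested, 8 were 2-fold or more lower in TBL/RβKO double-positive barcodes, 0 were higher and 7 were not called, with a median log2 ratio of -1.20, beside 10 lower and 0 higher in insulin barcodes (-1.43) and 3 lower and 3 higher of 14 in somatostatin barcodes (-0.02). Mafa was at 483 per 1e6 in the control and 39.5 in TBL/RβKO (log2 ratio -3.61 [-3.71 to -3.51]), a larger difference than the -2.77 of insulin barcodes. Slc2a2 was at 326 and 32.8 per 1e6 (-3.31 [-3.42 to -3.21], against -2.88). Ppp1r1a (-3.03), Vstm2l (-2.56), the cation channel Trpm5 (-2.09), Slc30a8 (-1.88), the oxidoreductase Ero1b (-1.60) and the protease Prss53 (-1.20) were also called. The other 7 ranged from -0.99 (Papss2) to 0.92 (Glp1r, the receptor of the incretin GLP-1), with Nkx6-1 at -0.90 and Ucn3 at -0.28.

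The δ-cell genes differed less. Of 10 tested 0 were called in either direction in double-positive barcodes (median -0.26) and 0 of 10 in somatostatin barcodes (0.01), whereas 2 of 5 tested in insulin barcodes were higher. Hhex was -0.63 [-0.74 to -0.52] and Rbp4 -0.85 [-0.87 to -0.83] in double-positive barcodes, against -0.28 and -0.46 in somatostatin barcodes. The ghrelin receptor Ghsr was -0.29, Mest -0.22, Ptprz1 -0.20 and Spock3 0.10. As molecules per barcode, Mest and Ptprz1 were slightly more numerous in TBL/RβKO (7.72 and 6.85) than in control double-positive barcodes (6.76 and 5.92), since TBL/RβKO barcodes held more UMIs in all.

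A list of 7 genes earlier found higher in TBL/RβKO β-cells of these libraries, and so no independent evidence of direction, was higher in all 7 in double-positive barcodes (median log2 ratio 3.42) and in insulin barcodes (3.29), and in 5 of 7 in somatostatin barcodes (2.45). In somatostatin barcodes the list summed to 1192 per 1e6 in TBL/RβKO and 447 in the control. The median somatostatin barcode held 471 and 424, so the difference there rested on part of the barcodes. The median double-positive barcode held 2662 and 475. Tmem252 had 2 UMIs in control and 2517 in TBL/RβKO double-positive barcodes (log2 ratio 9.66 [7.80 to 12.7]) and was found in 56.4% of the latter. Csn3, a casein of milk, had 5 and 4212 UMIs (9.08 [7.85 to 10.7]) and was found in 83.4%. The calcium-binding protein S100a6 was 4.65 higher, the defensin Defb1 3.42, glutamine synthetase (Glul) 2.36, and Lgals3bp and malic enzyme (Me1) 1.30 each. Per barcode, Tmem252 averaged 6.86 UMIs in double-positive, 5.28 in insulin and 0.543 in somatostatin TBL/RβKO barcodes, Csn3 11.5, 9.83 and 0.764, and Defb1 53.2, 40.0 and 8.34. As levels, log2 ratios of TBL/RβKO double-positive to insulin barcodes were -0.16, -0.32 and -0.13 for these 3 genes, and to somatostatin barcodes 2.46, 2.71 and 1.47.

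Neurog3, the transcription factor that starts the endocrine programme in the embryo, was present in double-positive barcodes of both libraries. It had a UMI in 61.3% of control and 68.1% of TBL/RβKO double-positive barcodes, in 63.3% and 58.1% of somatostatin barcodes and in 3.18% and 23.5% of insulin barcodes. It averaged 1.81 and 3.08 UMIs per double-positive, 1.60 and 1.63 per somatostatin and 0.0450 and 1.42 per insulin barcode, and the double-positive mean was 1.10 and 1.01 times the sum of the single-hormone means. Between the libraries its level differed by 0.36 [0.21 to 0.50] in double-positive and by 4.31 in insulin barcodes. Of 11 islet transcription factors tested 0 were called in either direction (median -0.14). Neurod1 was 0.55 higher, and Pdx1 fell by 0.72 and Isl1 by 0.52 on the log2 scale, none reaching 2-fold.

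**Figure D5:**
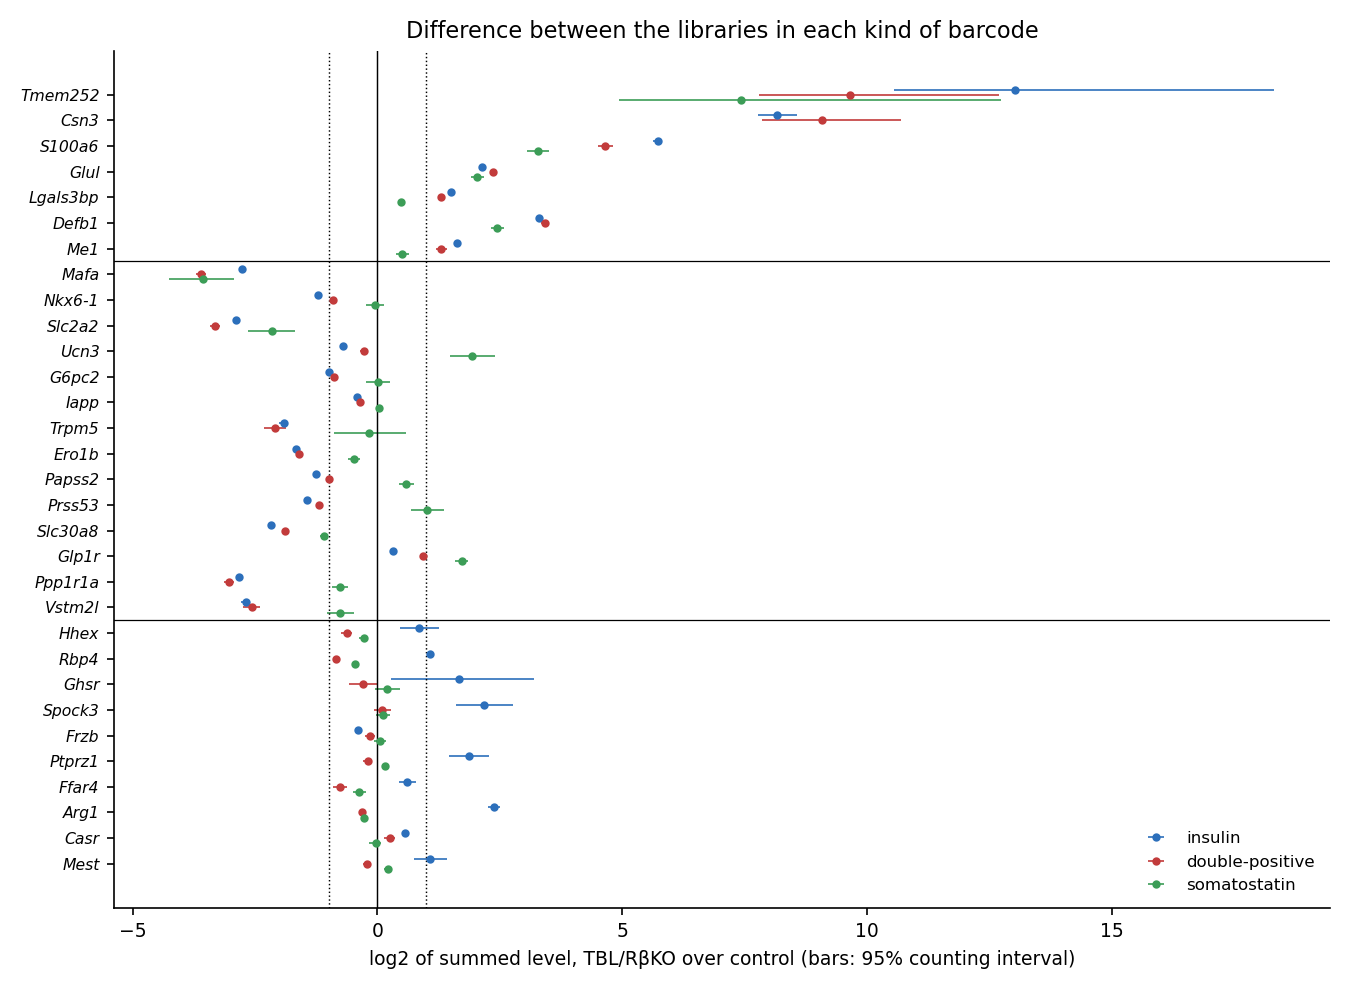
Log2 ratio of the summed level in TBL/RβKO over control, with 95% counting intervals, in insulin (blue), double-positive (red) and somatostatin (green) barcodes. From top to bottom stand 7 genes earlier found higher in TBL/RβKO β-cells, 14 β-cell genes and 10 δ-cell genes, and dotted lines mark 2-fold. Red points lay between 1.30 and 9.66 in the top block, between -3.61 (Mafa) and 0.92 (Glp1r) in the middle and between -0.85 (Rbp4) and 0.25 (Casr) in the lowest, and Csn3 of somatostatin barcodes is missing because no UMI was found in the control.

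Of the other lists, prohormone processing enzymes and granins had 2 of 11 genes higher, the granins Chga (1.00) and Chgb (1.34), and 1 lower, the neuropeptide precursor Vgf (-1.71), with a median of -0.16. Chga averaged 407 UMIs per control and 1090 per TBL/RβKO double-positive barcode. The list of dedifferentiation and immaturity genes had 2 of 7 tested higher, gastrin (Gast, 4.67) and Pcp4l1 (5.88), and 0 lower (median 0.21). Aldh1a3, the best known marker of dedifferentiated β-cells, had 42 and 66 UMIs, too few to be tested (0.01 [-0.57 to 0.60]). Genes of somatostatin and urocortin signalling were called in 0 of 4 tested (median 0.13), with the receptor Sstr3 at 0.20, and Crhr2, the receptor of Ucn3, had 28 and 43 UMIs. Markers of α-cells (0 of 6, -0.34), of Ppy cells (0 of 3, -0.03), of the cell cycle (0 of 4, -0.45) and of the immediate early and heat shock response (0 of 6, -0.43) gave no call.

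Among the 10 genes with the highest ratio between double-positive barcodes were Tmem252, Csn3, Endou, Pcp4l1, 6330403K07Rik, Krt19, Thrsp, Prkg2 and Tns1. Endou had 2 and 549 UMIs (log2 ratio 7.46 [5.60 to 10.5]). Several were spread over many TBL/RβKO double-positive barcodes, with the lipogenic factor Thrsp (5.70) in 70.6%, the kinase Prkg2 (5.12) in 83.4%, Tns1 (5.01) in 58.6%, 6330403K07Rik (5.87) in 51.2% and the duct keratin Krt19 (5.71) in 46.9%. Insulin barcodes showed like ratios in Krt19 (5.63), Thrsp (5.61) and Prkg2 (4.61). The 10 lowest were Emcn, Ccl5, Vsnl1, Mafa, Ovol2, Sgcz, Slc2a2, Cox6a2, Ppp1r1a and Col6a3. Emcn (-6.16) and the chemokine Ccl5 (-4.28) were carried by few barcodes, with 54.6% and 90.7% of their control UMIs in 1 barcode. Vsnl1 (-4.17), a calcium sensor, had UMIs in 35.1% of control and 2.72% of TBL/RβKO double-positive barcodes, Ovol2 (-3.46) in 49.5% and 7.90%, Sgcz (-3.43) in 71.9% and 17.7% and Cox6a2 (-3.20), a respiratory subunit, in 53.4% and 17.7%.

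Double-positive barcodes also varied among themselves, in splits made after the values were seen and given as description. In TBL/RβKO, the 239 barcodes with 1000 or more insulin UMIs per 10000 averaged 4.06 Mafa and 3.11 Slc2a2 UMIs, and the 128 under 1000 averaged 0.141 and 0.586. Nkx6-1 averaged 9.58 and 7.49, Hhex 3.14 and 3.97, Neurog3 2.39 and 4.38 and Tmem252 6.62 and 7.31 in these subsets, and the median of UMIs without hormones was 65648 and 61192. Low insulin thus went with little Mafa and Slc2a2, while depth, δ-cell genes and Tmem252 differed far less. A Cre UMI was found in 24.3% of the barcodes at 1000 or more and in 7.81% of those under it. The 28 control and 18 TBL/RβKO double-positive barcodes under 6000 genes were shallower, with medians of 18055 and 20738 UMIs without hormones. The control ones held medians of 1074 insulin and 510 Sst UMIs per 10000 and the TBL/RβKO ones 1633 and 162. Hhex had a UMI in 89.3% and 55.6% of them, and Nkx6-1 in 64.3% and 88.9%.

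Macrophage, stromal and endothelial markers were far lower in double-positive than in non-endocrine barcodes of both libraries. Non-endocrine barcodes were chosen by these markers and those of B cells, so this difference was fixed in advance and is only a description. The 6 macrophage markers summed to 103 and 51.4 per 1e6, against 5032 and 2166 in non-endocrine barcodes, the 6 stromal markers to 49.0 and 52.1, against 6807 and 9517, and the 6 endothelial markers to 42.6 and 7.68, against 4176 and 1075. The 5 B cell markers summed to 28.1 and 25.7, with Cd79b and Ms4a1 at 0 in the control, against 7.62 and 1387 in non-endocrine barcodes, and so were not lower in the control. The 7 exocrine markers summed to 51.5 and 278, against 666 and 539 in non-endocrine barcodes, and were led in TBL/RβKO by Spp1 (186) and Krt19 (91.7), while the acinar genes Cela2a and Ctrb1 were at 0 in both libraries. The 8 α-cell markers summed to 1688 and 1980, against 11633 and 7797 in α-cell barcodes. The 4 markers of Ppy cells, among them Pyy, were high, at 35292 and 64963 per 1e6, against 73787 and 71207 in somatostatin barcodes. Between the libraries, C1qa (-1.40) and Egfl7 (-1.37) were called lower and Spp1 (1.90, but -1.45 under 6000 genes) and Krt19 (5.71) higher in double-positive barcodes. The part of these cells in the results was not tested.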

How the data were processed

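Both islet libraries, 1 per group, were analysed, with groups taken from the labels. The authors deposited raw UMI counts for each gene in each barcode (22383 features, 2 of them Cre), from Cell Ranger 7.1.0 on GRCm39 per their processing notes. They precede the study's removal of free RNA and doublets. The control held 7067 barcodes with 241434108 UMIs and the TBL/RβKO library 5833 with 185062206 (medians of 22509 and 19758 UMIs). Double-positive barcodes held 26877581 and 32765217 UMIs. Barcodes, the members and the 18 gene lists were chosen with earlier results of these data known. Levels are UMIs summed over barcodes per 1e6 UMIs without 5 hormones (the hormones per 1e6 of all UMIs). Intervals are exact: Clopper-Pearson for shares (for a count of 0, the limit is 3 counts of the total), Poisson for levels and conditional binomial for ratios. Genes were named as list members, as the 10 highest and 10 lowest called ratios between libraries with 50 or more UMIs, or as the 10 highest above both single-hormone kinds. Scrublet (scanpy 1.11.5) scored doublets, marked at 0.8% per 1000 barcodes, and none were removed. Positions are GENCODE on GRCm39. Python 3.11.15, numpy 2.4.6, scipy 1.17.1 and pandas 2.3.3 were used, and calls and intervals were tested on simulated data. Some listed or named genes are not reported here.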

Additional observations from a re-analysis of the deposited data

Results flagged for a closer look

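A few genes of stromal cells and macrophages differed in opposite directions between the libraries when double-positive barcodes were compared with single-hormone barcodes. These differences were not tested. Against insulin barcodes, the log2 ratio of the matrix protein Mgp was 2.30 in the control and -1.12 in TBL/RβKO, that of Sparc 1.56 and -2.42 and that of the intermediate filament Vim 1.74 and -1.90. Against somatostatin barcodes, Sparc was 2.30 in the control and -2.08 in TBL/RβKO, and Apoe -1.39 and 1.49. In the control, 38.6% of the Mgp UMIs and 52.4% of the Sparc UMIs of double-positive barcodes lay in 1 barcode, and in TBL/RβKO 41.2% of the Apoe, 34.6% of the Sparc and 23.3% of the Vim UMIs did.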

How the results depend on the processing

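No paired analysis was possible because each group has 1 library. The main limit was the upper bound on genes, since under 6000 genes left 28 control and 18 TBL/RβKO double-positive barcodes. Numbers are given for the control and then TBL/RβKO. In that setting double-positive barcodes were 0.952% and 0.712% of kept barcodes, 12.2% and 5.36% of those with Sst and 2.05% and 5.50% of insulin-positive ones, and 3.85% and 1.68% of Gcg barcodes held insulin. Medians were 1074 and 1633 for insulin, 510 and 162 for Sst, 24934 and 25644 for UMIs and 1863.5 and 1872.5 for genes at 5000 UMIs. Both kinds of marker were found in 32.1% and 0.0% at 5000 UMIs, Gcg in 0.0% and 22.2% and Ppy in 82.1% of control barcodes. The median ratio to the summed means, with every kind under 6000 genes, was 0.451 and 0.473, with 5183 and 4835 genes 2-fold or more from the sum. Between libraries 420 genes were higher and 525 lower, 1503 and 1171 differed from insulin, 1011 and 1939 from somatostatin barcodes, and 348 and 395 lay outside both.

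Without marked doublets, control shares were 5.30% of kept, 41.5% of Sst and 9.27% of insulin-positive barcodes, Gcg barcodes with insulin were 5.26% and 6.69%, control Gcg was at 19.9%, 19 TBL/RβKO genes departed from the sum, and 4 and 0 lay outside both kinds. With Sst at 80 or more, shares were 5.65% and 6.80% of kept, 9.57% and 19.8% of insulin-positive and 35.6% of TBL/RβKO Sst barcodes, and median Sst 203 and 184. With insulin at 600 or more, TBL/RβKO values were 7.23% of kept and 33.7% of Sst barcodes, 1732.5 for insulin, 1917.5 for genes at 5000 UMIs and 0.809 for the sum. With Gcg and Ppy under 100 throughout, the ratio to the sum was 1.04 and 0.948, 30 and 85 genes departed from it, 346 were higher in TBL/RβKO, 1037 and 1092 differed from somatostatin and 430 (TBL/RβKO) from insulin barcodes, and 29 (TBL/RβKO) lay outside both. Scaled to all UMIs, 414 genes were higher and 70 lower in TBL/RβKO, 878 control genes differed from somatostatin barcodes and 2 and 5 lay outside both. With no gene filter, 849 were higher and 1062 lower, 2314 and 1963 differed from insulin and 2003 and 2341 from somatostatin barcodes, and 292 and 474 lay outside both. Unthinned, genes were 7831 and 8182 and barcodes with both markers 88.8% and 83.1%. Causes of these moves were not tested.

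Of called or listed genes, those that turned direction between libraries were Pecam1 (0.48 under 6000 genes, 0.15 without marked doublets, 0.30 with Gcg and Ppy under 100), Spp1 (-1.45 under 6000 genes), Lyz2 (-1.13 without marked doublets, -0.38 at Sst 80), Hspa1a (-0.91 at Sst 80, -0.70 with Gcg and Ppy under 100), Hspa1b (-0.29 at Sst 80), Ccl5 (0.45) and Igkc (-0.05), both with Gcg and Ppy under 100. Of the listed or named genes that differed 2-fold or more between libraries, 61 of 61 kept their direction with insulin at 600, 60 of 60 scaled to all UMIs and 60 of 60 with barcodes weighted equally. Of these, 58, 56 and 55 stayed at 2-fold or more. Direction was kept by 27 of 29 under 6000 genes, 55 of 57 without marked doublets, 58 of 61 at Sst 80 and 46 of 50 with Gcg and Ppy under 100. In these settings 21, 49, 53 and 39 stayed at 2-fold or more. Smaller differences were not counted here. Over all alternatives 80 summary values moved and 92 did not. The alternatives for the summed means and for Gcg barcodes with insulin were chosen after seeing the data.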
